A study of Mus musculus with 4 samples.

Results

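The cytokines by which thymic stroma supports developing T cells were examined in 4 pools of mouse thymic epithelial cells (TECs), each measured on 1 single-colour microarray. The group comprised 8 genes taken by symbol (Il7, Kitl, Il15, Il15ra, Tslp, Flt3l, Igf1 and Il6), of 21292 gene symbols on the array. They were represented by 17 probes and 44 spots per array, and every probe of each gene was kept. The choice used no measured value, although earlier results of these arrays were known when it was made. All mice carried K14-CreERT2, a tamoxifen-inducible Cre recombinase driven by a keratin 14 promoter, and were given tamoxifen at 3 weeks of age, in 3 daily doses of 1 mg. The CKO mice were Meis1fl/fl, with both alleles of the homeobox gene Meis1 floxed. The control mice, which the labels call WT, were Meis1fl/+ and therefore also carried Cre and 1 floxed allele. CD45- EpCAM+ cells were sorted 4 days after tamoxifen from 2 CKO and 2 control pools of 6 mice each, in 2 independent experiments. This Cre is made only where the keratin 14 promoter is active, so some sorted cells may not carry the deletion.

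These genes make up much of the growth factor supply of the thymic niche. Interleukin 7 (IL-7) sustains immature thymocytes through the IL-7 receptor and the common gamma chain, and stem cell factor, encoded by Kitl, acts on early progenitors through KIT. IL-15 is presented to neighbouring cells by the receptor chain that Il15ra encodes and supports natural killer and innate-like T cells, whereas TSLP signals through CRLF2 paired with the IL-7 receptor chain. FLT3 ligand acts on progenitors and dendritic cells, IGF1 on many cell types, and IL-6 through gp130 and STAT3.

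The comparison asked whether deletion of Meis1 for 4 days altered the transcripts of these factors. The arrays showed 58.6% to 63.6% of spots well above background, no saturated spot and a 75th percentile of the signal of 109 and 153 in CKO 1 and 2 and 93.1 and 137 in control 1 and 2. CKO 1 and control 1 shared slide 1, and CKO 2 and control 2 shared slide 2. The CKO 2 array differed from the others, correlating with them at 0.857 to 0.884, whereas the other arrays correlated at 0.936 to 0.943 among themselves. Results that rest on CKO 2 are therefore given without it as well. All 14 TEC markers examined were well above background on all 4 arrays. By the first of its probes Meis1 itself read -0.43 and -2.09 in CKO 1 and 2, against -0.12 and -0.91 in control 1 and 2 (log2 difference -0.75, SE 0.69, limma adjusted p = 1). A second Meis1 probe read -3.77 and -4.74 in CKO, where it was not well above background, against -3.19 and -3.23 in control. The floxed exons are not given in the sources used here, so these probes do not check the labels.

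The unit used throughout, called the level here, is the log2 processed intensity after subtraction of the log2 75th percentile of its array. A level is comparable between arrays for 1 probe but not between probes. A difference is the CKO mean minus the control mean of these levels.

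The probes are 60 bases long, and those printed here are 1 for each of 6 genes. For Il7 and Flt3l a probe with a brighter mean, not printed here, gave the values tested for the gene. Positions on mm9 were taken from the deposited array files. No annotation of that build was used, so exons were not assigned. The Il7 probe covers chr3:7576123-7577226 on the minus strand and the Il15ra probe chr2:11645753-11652254 on the plus strand. These spans of 1104 and 6502 bases are longer than the probes, as for sequences joined across an intron. The Kitl probe lies at chr10:99539380-99539439 (plus), the Il15 probe at chr8:84858403-84858462 (minus), the Flt3l probe at chr7:52389282-52389341 (minus) and the Igf1 probe at chr10:87376418-87376477 (plus).
Il7 probe: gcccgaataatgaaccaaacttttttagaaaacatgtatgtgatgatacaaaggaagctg
Kitl probe: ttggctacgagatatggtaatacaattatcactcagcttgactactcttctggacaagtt
Il15 probe: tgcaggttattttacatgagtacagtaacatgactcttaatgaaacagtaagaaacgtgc
Il15ra probe: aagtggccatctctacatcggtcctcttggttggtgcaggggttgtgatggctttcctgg
Flt3l probe: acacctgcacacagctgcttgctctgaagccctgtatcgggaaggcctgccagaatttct
Igf1 probe: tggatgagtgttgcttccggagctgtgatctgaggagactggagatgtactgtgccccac

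No member passed the test. By limma with Benjamini-Hochberg adjustment over 16805 features, 0 of the 8 genes had an adjusted p under 0.05, a share that was also 0% over all features in either direction, and each of the 8 had an adjusted p of 1. An unadjusted p under 0.05 was found for Tslp alone, on the lower side, where 1.43% of all features had one (1.35% on the higher side). Il7 and Tslp read lower in both CKO pools than in both control pools. Such separation of the arrays, at any size, was found for 25.6% of all features (14.5% lower and 11.1% higher), and 2 of 8 genes is near that background. Tslp was the 1 member separated with at least a 2-fold difference, against 7.28% of all features (3.94% lower and 3.34% higher). With 2 pools against 2, an exact permutation test cannot give a two-sided p below 0.333.

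**Figure D1:**
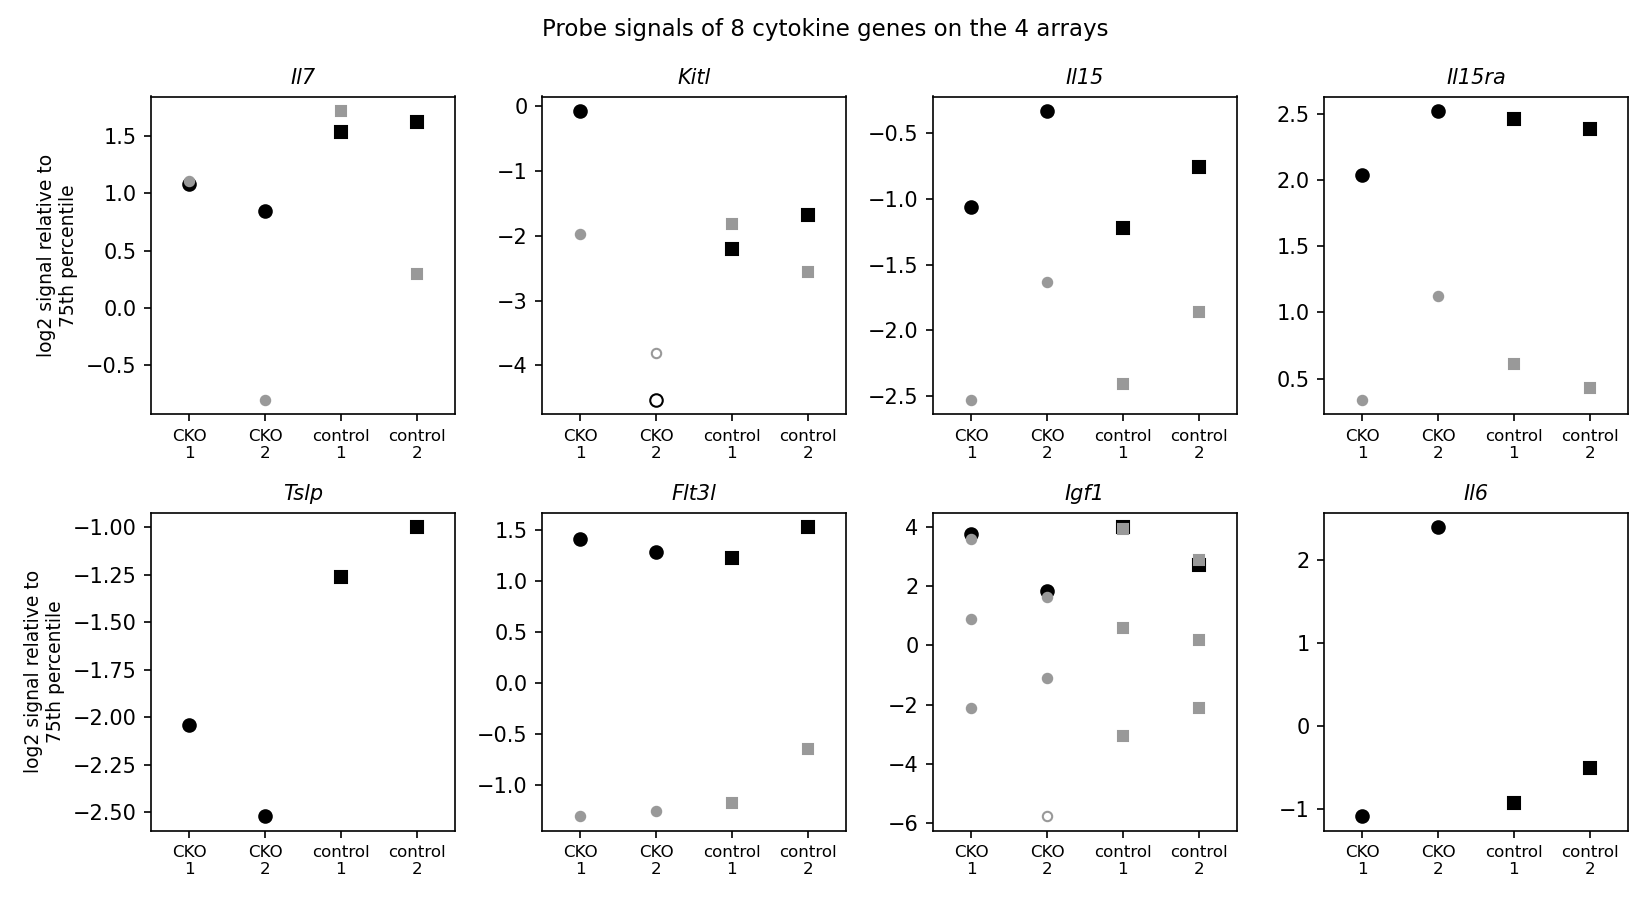
Levels of the 16 tested probes of the 8 genes, in log2 units above or below the 75th percentile of each array, for CKO 1 and 2 (circles) and control 1 and 2 (squares). Black marks the probe that stands for the gene, grey its other probes, open symbols arrays where most spots were not well above background. Il7 and Tslp are the genes whose black symbols in CKO all lie below those in control, and Il6 in CKO 2 lies far above the other arrays.

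Tslp, which encodes thymic stromal lymphopoietin, an epithelial cytokine that acts on dendritic cells and lymphoid progenitors, had the largest difference on the lower side among the 8 genes. Its single probe, at chr18:32978885-32978944 on mm9, read -2.04 and -2.52 in CKO 1 and 2, against -1.26 and -1.0 in control 1 and 2. Both CKO pools were thus below both control pools, by more than the 0.48 between the CKO pools and the 0.27 between the control pools. The mean level was -2.28 ± 0.34 in CKO and -1.13 ± 0.19 in control (SD, n = 2 pools each). The log2 difference was -1.15 (SE 0.45, 95% interval -2.28 to -0.02, limma unadjusted p = 0.0477, adjusted p = 1). Within slide 1 it was -0.77, a ratio of 0.585, and within slide 2 it was -1.52, a ratio of 0.348. With the slide as a block the unadjusted p was 0.0632. The signal was dim, at 26.5 and 26.6 intensity units in the CKO pools and 38.8 and 68.5 in the control pools before scaling, and normexp background correction gave a difference of -0.47. Leaving out 1 array at a time gave between -1.39 and -0.91.

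Il7, the interleukin gene on which early thymocytes depend most directly, read lower in both CKO pools by 2 probes, although these pools and the controls overlapped for 1 of them. The probe with the brighter mean, at chr3:7573207-7573266 on the minus strand, had levels of 1.08 and 0.85 in CKO 1 and 2, against 1.54 and 1.62 in control 1 and 2. The control pools lay 0.08 apart and the CKO pools 0.23 apart, so the groups did not overlap. The log2 difference was -0.61 (SE 0.43, 95% interval -1.68 to 0.46, limma adjusted p = 1). Slide 1 gave -0.46 and slide 2 gave -0.76. The probe printed above read 1.11 and -0.80 in CKO, against 1.72 and 0.30 in control. Here CKO 1 was above control 2, yet each CKO pool was below the control of its own slide, by -0.61 on slide 1 and -1.11 on slide 2. A further Il7 probe, from a thymus cDNA, was not well above background on any array and was not tested. The difference stayed between -0.73 and -0.48 under all 12 alternatives, and no alternative brought it past the threshold, with adjusted p-values of 0.572 to 1.

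Kitl, which encodes the ligand of KIT, differed in opposite directions on the slides by the probe that stands for it. That probe, printed above, read -0.07 and -4.53 in CKO 1 and 2, against -2.20 and -1.68 in control 1 and 2. CKO 1 was the highest and CKO 2 the lowest array, and CKO 2 was not well above background. The difference was 2.13 on slide 1 and -2.85 on slide 2, and -0.36 over both (SE 1.42, 95% interval -3.90 to 3.18, limma adjusted p = 1). It rests in part on a dim signal. The second probe lies 23101 bases further along the chromosome and was spotted 10 times per array. It read -1.97 and -3.81 in CKO, against -1.81 and -2.55 in control, and in CKO 2 only 2 of its 10 spots were well above background. The height of CKO 1 by the first probe was not seen by the second, which differed by -0.16 on slide 1 and -1.26 on slide 2. Without CKO 2 the first probe gave 1.87, and normexp correction gave 0.10.

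**Figure D2:**
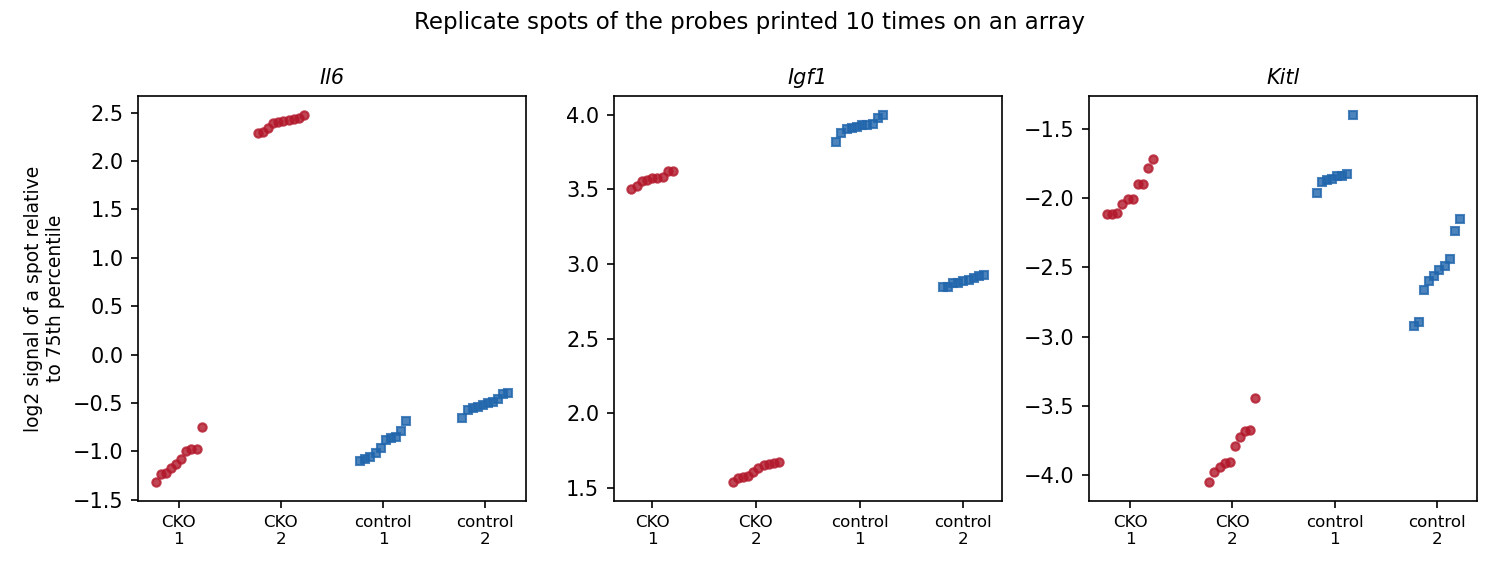
Every unflagged spot of the 3 probes printed 10 times on an array, in log2 units from the 75th percentile of its array, for CKO 1 and 2 (red circles) and control 1 and 2 (blue squares). The spots of an array have an SD of 0.029 to 0.051 for Igf1, 0.062 to 0.165 for Il6 and 0.141 to 0.246 for Kitl. CKO 2 stands clear of the other arrays for all 3 probes, above them for Il6 and below them for Igf1 and Kitl. The spots of CKO 1 and control 1 overlap for Il6 and Kitl. Most Kitl spots of CKO 2 were not well above background.

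Il15 and Il15ra, the cytokine and the chain that presents it, were highest in CKO 2 by both probes of each gene. Il15 read -1.06 and -0.33 in CKO 1 and 2, against -1.22 and -0.76 in control 1 and 2, by the probe printed above. Slide 2 arrays were higher than slide 1 arrays in both genotypes, and the genotypes overlapped. The log2 difference was 0.29 (SE 0.49, 95% interval -0.94 to 1.53, limma adjusted p = 1). Slide 1 gave 0.15 and slide 2 gave 0.43. The second Il15 probe, taken from a shorter isoform, lies 8833 bases away and read -2.53 and -1.63 in CKO, against -2.41 and -1.86 in control. Its differences were -0.12 and 0.24 on the slides. Without CKO 2 the first probe gave -0.07.

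Il15ra read 2.04 and 2.52 in CKO 1 and 2, against 2.46 and 2.38 in control 1 and 2. The controls lay 0.08 apart and between the CKO pools. The log2 difference was -0.14 (SE 0.45, 95% interval -1.26 to 0.97, limma adjusted p = 1). Slide 1 gave -0.42 and slide 2 gave 0.14. The second Il15ra probe, which shares 17 bases with the first and is no independent reading, gave 0.34 and 1.12 in CKO, against 0.61 and 0.43 in control. The direction turned without CKO 1 (0.10) and with the mean of both probes (0.03). The intervals of both genes allow a 2-fold difference in at least 1 direction, so an equal level in the genotypes was not shown.

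Flt3l, the FLT3 ligand gene, differed least between the genotypes. Levels were 1.41 and 1.29 in CKO 1 and 2, against 1.23 and 1.53 in control 1 and 2, by the probe at chr7:52386603-52386662 on the minus strand. The CKO pools lay within the range of the control pools. The log2 difference was -0.03 (SE 0.43, 95% interval -1.11 to 1.05, limma adjusted p = 1). Slide 1 gave 0.18 and slide 2 gave -0.24. The dimmer probe printed above read -1.30 and -1.25 in CKO, against -1.17 and -0.64 in control. By that probe both CKO pools were below both control pools, with differences of -0.13 and -0.61 on the slides, which the brighter probe did not show. Leaving out CKO 2 or control 2 turned the sign of the brighter probe (0.03 and 0.12).

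Igf1, a growth factor gene active in many stromal and myeloid cells, was lowest in CKO 2 by all 4 of its probes. The probe printed above read 3.75 and 1.84 in CKO 1 and 2, against 3.98 and 2.71 in control 1 and 2. The slide 2 arrays were lower than the slide 1 arrays in both genotypes, and CKO 1 lay between the controls. The probe spotted 10 times, at chr10:87393516-87393575 (plus), gave nearly the same pattern, with 3.57 and 1.62 in CKO, against 3.92 and 2.88 in control. Its spots varied by an SD of 0.029 to 0.051 within an array, less than the distances between the arrays. The log2 difference of the first probe was -0.55 (SE 0.81, 95% interval -2.57 to 1.47, limma adjusted p = 1), and the SE was 0.44 with the slide as a block (unadjusted p = 0.281). Within slides, the first probe gave -0.23 and -0.87 and the probe of 10 spots -0.35 and -1.27.

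The other probes of Igf1 agreed on slide 2 but not on slide 1. The probe at chr10:87396567-87396626 read 0.88 and -1.10 in CKO, against 0.58 and 0.16 in control, and so differed by 0.30 and -1.26. A probe 71185 bases upstream of it, matched to an unclassified cDNA that the array names Igf1, read -2.12 and -5.76 in CKO, against -3.06 and -2.11 in control. It was not well above background in CKO 2. Without CKO 2 the difference of the first probe was 0.41, and without control 1 it was 0.08, so its sign depended on which pools were compared.

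Il6, whose product drives the acute phase response and, with other signals, T helper cell differentiation, had the largest difference of the 8 genes, and it came from 1 array. Levels were -1.09 and 2.39 in CKO 1 and 2, against -0.93 and -0.51 in control 1 and 2, by its probe at chr5:30346362-30346421 (plus). CKO 2 was far above the other 3 arrays, while CKO 1 was the lowest. The 10 spots read 747 to 850 intensity units in CKO 2 and 43.7 to 64.6 in CKO 1, against 43.5 to 57.9 in control 1 and 86.8 to 104 in control 2, before scaling. The reading was thus repeated by every spot of the array. On slide 2 the ratio of CKO to control was 7.46 (log2 difference 2.90), and on slide 1 it was 0.896 (-0.16). Over both slides the log2 difference was 1.37 (SE 1.14, 95% interval -1.47 to 4.21, limma adjusted p = 1). Without CKO 2 it was -0.37. Without CKO 1 it was 3.11 (limma adjusted p = 0.0466), under the assumption that the lone CKO 2 array varies like the controls.

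**Figure D3:**
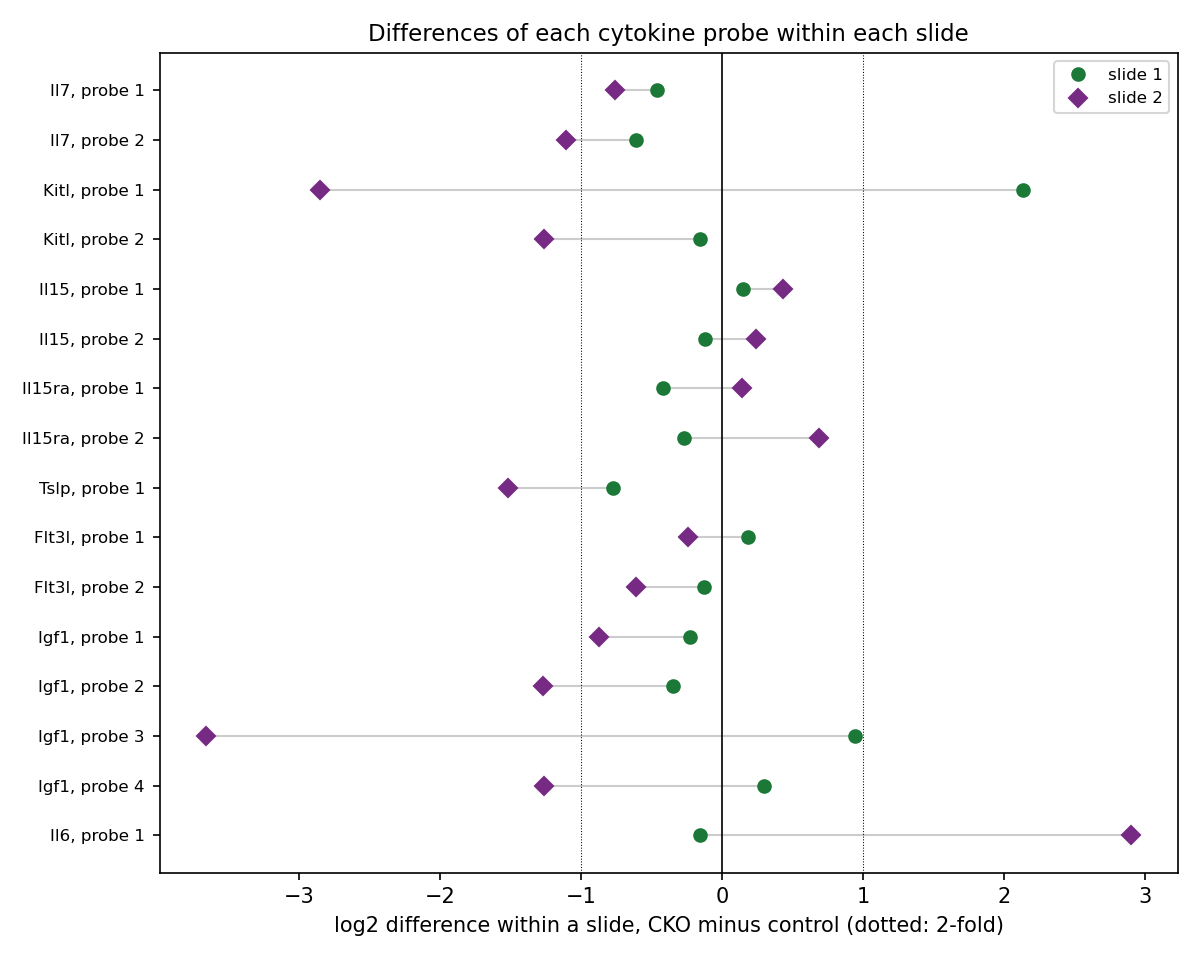
Log2 difference of CKO minus control within slide 1 (green circles) and within slide 2 (purple diamonds) for each of the 16 tested probes, with dotted lines at 2-fold. Both Il7 probes and the Tslp probe lie left of 0 on both slides, as do some probes of Kitl, Flt3l and Igf1. Probes of Il7, Kitl, Tslp, Igf1 and Il6 reach beyond 2-fold on slide 2, and on slide 1 only a Kitl probe does.

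Across the group, the difference had the same sign on both slides for 4 of the 8 genes. Il7, Tslp and Igf1 were lower on both slides, where 26.6% of all features were, and Il15 was higher on both, where 20.3% were. Kitl alone differed by 2-fold or more on slide 1, where 14.5% of features did. On slide 2, Il6 was higher by at least 2-fold and Kitl and Tslp were lower, against 28.4% of all features (11.2% higher and 17.2% lower). CKO 2 was the highest array for 3 of the genes (Il15, Il15ra and Il6) and the lowest for 4 (Il7, Kitl, Tslp and Igf1), and it lay at 1 end for 66.1% of all features.

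Promoter sequences from RefSeq on GRCm38.p6 were found for 5 of the 8 genes. None was found for Il7, Il15 and Tslp, so these genes were not searched. The 4 that held a motif are shown because the compared mice differ in a transcription factor. The windows searched ran from 250 bases before to 50 after each start, and the first 280 bases are printed, with matches in capitals. Motifs were searched on both strands: the MEIS core TGACAG, the FOXN1 core GACGC, the interferon-stimulated response element, the STAT site TTCNNNGAA and the kappaB site. Of 32851 promoters of that length, these were held by 19.2%, 27.2%, 3.44%, 8.30% and 1.63%. Kitl (chr10:100015571-100015850, plus) held 1 FOXN1 and 1 MEIS core, as did the downstream start of Il15ra (chr2:11705462-11705741, plus). Flt3l (chr7:45136403-45136682, minus) held 1 interferon element and 1 MEIS core, and Il6 (chr5:30012864-30013143, plus) held 1 kappaB site. Igf1 and the other start of Il15ra held none of the 5 motifs in these windows. No matches overlapped, and a match describes letters only and shows no binding.
Kitl promoter: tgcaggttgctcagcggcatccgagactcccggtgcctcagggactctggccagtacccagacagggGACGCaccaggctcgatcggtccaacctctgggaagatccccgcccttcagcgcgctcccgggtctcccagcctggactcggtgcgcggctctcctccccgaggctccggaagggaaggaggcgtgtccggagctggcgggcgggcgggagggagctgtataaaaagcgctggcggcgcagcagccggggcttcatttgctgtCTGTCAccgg
Il15ra promoter: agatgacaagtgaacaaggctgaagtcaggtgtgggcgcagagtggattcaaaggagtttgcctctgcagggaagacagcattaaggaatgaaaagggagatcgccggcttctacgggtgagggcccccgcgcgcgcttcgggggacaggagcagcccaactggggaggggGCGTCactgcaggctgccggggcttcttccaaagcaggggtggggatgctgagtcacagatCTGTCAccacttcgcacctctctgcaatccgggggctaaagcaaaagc
Flt3l promoter: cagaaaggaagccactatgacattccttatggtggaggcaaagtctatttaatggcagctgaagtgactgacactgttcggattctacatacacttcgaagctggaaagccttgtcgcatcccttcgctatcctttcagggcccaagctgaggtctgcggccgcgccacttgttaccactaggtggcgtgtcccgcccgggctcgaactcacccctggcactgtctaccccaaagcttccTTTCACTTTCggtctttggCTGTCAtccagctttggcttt
Il6 promoter: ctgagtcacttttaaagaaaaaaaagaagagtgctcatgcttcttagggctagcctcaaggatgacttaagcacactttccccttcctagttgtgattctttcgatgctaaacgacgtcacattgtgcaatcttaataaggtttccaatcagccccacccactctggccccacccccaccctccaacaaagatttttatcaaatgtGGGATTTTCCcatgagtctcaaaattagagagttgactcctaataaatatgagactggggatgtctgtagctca

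Of the genes with a MEIS core in this window, Kitl, Il15ra and Flt3l had log2 differences of -0.36, -0.14 and -0.03, each closer to 0 than its SE, and each turned sign when single arrays were left out. Il7 and Tslp, the genes whose arrays separated, had no promoter sequence to search. Whether MEIS1 acts on any of the 8 genes was not tested.

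Receptors and other genes of these pathways were followed in 4 gene lists, and 0 of the 51 genes tested in these lists had an adjusted p under 0.05. Of the 9 receptor genes, 7 were higher and 2 lower, with a median log2 difference of 0.23, against -0.05 over all features. The median was -0.01 on slide 1 and 0.66 on slide 2. Il7r, the receptor chain shared by IL-7 and TSLP, read -0.17 and 3.07 in CKO 1 and 2, against 0.29 and -0.13 in control 1 and 2. CKO 2 was the high array, as for Il6 (log2 difference 1.37, SE 1.07). A dimmer Il7r probe was also highest in CKO 2, with -3.39 and -0.23 in CKO, against -1.98 and -4.26 in control. Flt3 was well above background in both CKO pools and in neither control pool, at least 4.10-fold higher (limma adjusted p = 1), with levels of -3.55 and 0.75 in CKO and -5.02 and -3.46 in control. The genotypes overlapped all the same, as CKO 1 read below control 2, so the bound rests on CKO 2. Flt3 was tested through the CKO pools alone, and its p, from dim control signals, supports nothing. Igf1r differed by -0.52 by 1 probe and by 0.05 and -0.13 by further probes, and Il2rb, the beta chain for IL-15, by 0.46 (SE 0.63 for the first Igf1r probe and 0.66 for Il2rb).

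Of the 14 JAK, STAT and SOCS genes tested, 6 were higher and 8 lower, with a median of -0.06. Jak2, a kinase downstream of several of these receptors, read -0.06 and 2.15 in CKO 1 and 2, against -0.21 and -0.13 in control. Both CKO pools were above both control pools, but by 0.14 on slide 1 and 2.28 on slide 2 (difference 1.21, SE 0.79). A second Jak2 probe did not separate the genotypes, since CKO 1 read -0.79 there, against -0.73 and -0.36 in control 1 and 2. Jak3, the kinase of the common gamma chain, was above background in neither control pool and at least 1.42-fold higher in CKO (limma adjusted p = 1), although CKO 2 at -3.38 read below control 2 at -3.26. Jak3 too was tested through the CKO pools alone, so its p supports nothing, and its bound rests on CKO 1, at -2.31. Further Jak3 probes, above background in only 1 CKO pool and not tested, read highest in CKO 2, at -3.29 and -2.88. Stat5a and Stat5b, the STATs of the IL-7 response, differed by -0.45 and -0.38 (SE 0.49 each). Further Stat5b probes differed by -0.15 and by 1.05, so the direction depended on the probe.

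In the IGF list, 3 of 11 genes were higher and 8 lower, with a median of -0.22. Igf2, a second IGF ligand, read -0.31 and -0.61 in CKO, against -1.51 and -0.75 in control, so that both CKO pools were above both controls by this probe (difference 0.67, SE 0.49). By a second Igf2 probe the genotypes overlapped, with -1.39 and -1.93 in CKO, against -3.65 and -1.78 in control. Igfbp3, a circulating IGF carrier, was also separated on the higher side (0.65, SE 0.47), and a further probe of it was above background in the CKO pools only. Igfbp1 (-0.77, SE 0.78) and the adaptor gene Irs1 (-0.59, SE 0.71, with a second probe at -0.01) overlapped between genotypes. In no case did a p pass the adjustment.

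Among 17 tested genes of other interleukins and blood cell growth factors, 7 were higher and 10 lower, with a median of -0.43. Osm, which encodes oncostatin M, a cytokine of the IL-6 family, was well above background in both CKO pools, at -2.49 and -1.36, and in neither control pool, where it read -5.51 on each. It was at least 2.85-fold higher in CKO (limma adjusted p = 0.828). That p was computed from control signals that were not above background, and Osm was tested through the CKO pools alone, so it supports nothing. A second Osm probe was above background in CKO 2 only, with -5.40 and -1.38 in CKO and -5.65 and -4.96 in control. Il34, an alternative ligand of the CSF1 receptor, was higher in both CKO pools, at -1.14 and -1.42, against -2.02 and -2.55 in control (difference 1.01, SE 0.46). Il33, an epithelial alarmin, was lower, at -0.87 and -2.59 in CKO, against -0.23 and -0.53 in control (-1.35, SE 0.67). Il4 differed by -1.31 (SE 0.74), but was above background in 1 of 2 CKO pools. On slide 1, which does not hold CKO 2, the list medians were -0.01 for receptors, -0.25 for JAK, STAT and SOCS genes, 0.09 for the IGF axis and -0.19 for the other cytokines.

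**Figure D4:**
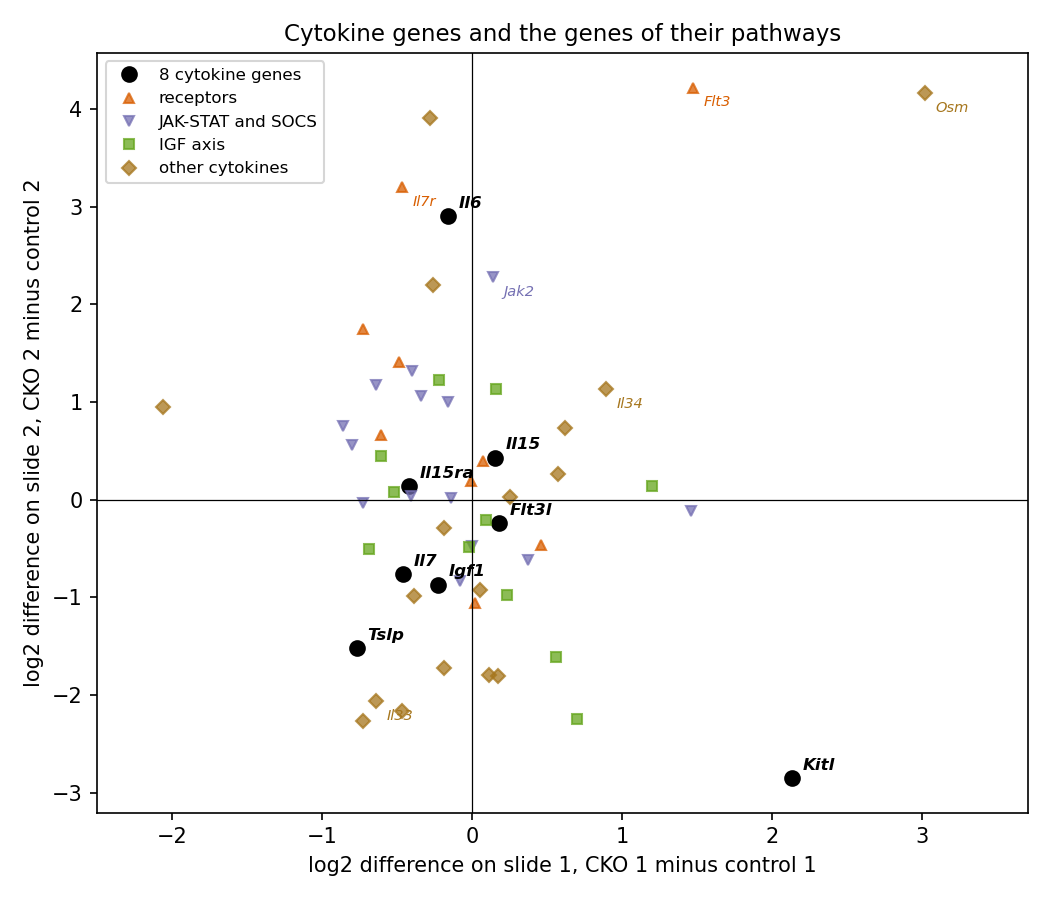
Log2 difference on slide 1 (horizontal, CKO 1 minus control 1) against that on slide 2 (vertical, CKO 2 minus control 2) for the 8 cytokine genes (black, named) and the tested genes of 4 pathway lists. Il6 and Il7r lie high on slide 2 alone, as do Jak2 and some unnamed genes of the lists. Tslp, Il7 and Igf1 lie in the lower left. Osm, Flt3 and Jak3 are drawn from control signals that were not above background, so their positions are not measured differences.

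Several marker lists moved with single arrays, most of them with CKO 2. The summed signal of the 14 tested myeloid and dendritic cell markers, as log2, was 4.77 and 6.94 in CKO 1 and 2, against 4.40 and 4.92 in control 1 and 2. It was highest in CKO 2, as were Il6, Il15, Il15ra, Il7r and Flt3, and 11 of these markers were higher and 3 lower by the overall difference. Mpeg1 carried much of the CKO 2 sum, at 6.16, against -1.89 in CKO 1 and -1.91 and -0.56 in control. The median level of the list was -1.47 and 0.56 in CKO, against -2.01 and -1.12 in control, also highest in CKO 2. The 8 tested fibroblast and mesenchymal markers summed to 3.67 and 1.83 in CKO, against 3.81 and 2.94 in control, lowest in CKO 2, as were Il7, Igf1, Kitl and Tslp. Of these, 1 was higher and 7 lower by the overall difference (median -0.80). Of that list Dpt was not well above background on any array. Thymocyte markers (11 tested) summed to 2.63 and 5.44 in CKO, against 5.67 and 4.25 in control, lowest in CKO 1. Dntt, the terminal transferase gene, carried much of that sum, at 1.73 and 3.49 in CKO, against 5.13 and 3.5 in control. The median level of the list was -1.88 and 0.90 in CKO, against 0.29 and -0.29 in control. Low values in CKO 1 were not confined to Dntt, as 10 of the 11 markers were lowest there. In CKO 2, 6 of the 11 markers were highest, as Il7r was. The 14 TEC markers summed to 9.13 and 8.10 in CKO, against 9.38 and 9.01 in control. This sum was lowest in CKO 2, as were 12 of the 14 markers and Il7, Igf1, Kitl and Tslp. CKO 2 lay at 1 end for 66.1% of all features, so a shared extreme array does not tell a member's cell of origin. Of the TEC markers, 2 were higher and 12 lower (median -0.73). Foxn1 and Krt5 were lower in both CKO pools than in both control pools, and Cd83 was higher in both. Such separation was found for 14.5% of all features on the lower side and 11.1% on the higher side, so 2 of 14 markers lower is near that background. On slides 1 and 2 the differences were 0.12 and 3.63 for Cd83, -0.17 and -1.91 for Foxn1 and -0.84 and -0.69 for Krt5. The difference of Cd83 thus came almost wholly from slide 2. Endothelial markers (4 tested) summed to 0.30 and 0.63 in CKO, against 0.08 and 0.01 in control, with Tie1, Emcn and Eng above background on no array. Tuft-like markers (7 tested) summed to 2.41 and 2.26 in CKO and 2.80 and 2.62 in control, lower in both CKO pools, as were Il7 and Tslp. Of the 7, 3 were lower in both CKO pools than in both control pools, and 1 was higher. The shares over all features were 14.5% and 11.1%, and whether the list departs from them was not tested. B cell markers (3 tested) summed to 0.05 and 0.16 in CKO and 0.65 and -0.10 in control. Erythroid markers (3 tested) summed to 2.03 and 0.58 in CKO and 2.63 and 1.41 in control. The sort for CD45- EpCAM+ cells, after magnetic depletion of cells bearing CD45 or Ter119, would remove blood cells and cells without EpCAM. The part of any remaining ones in the cytokine differences was not tested. In such pools, fewer cells of a type and less RNA per cell cannot be told apart.

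**Figure D5:**
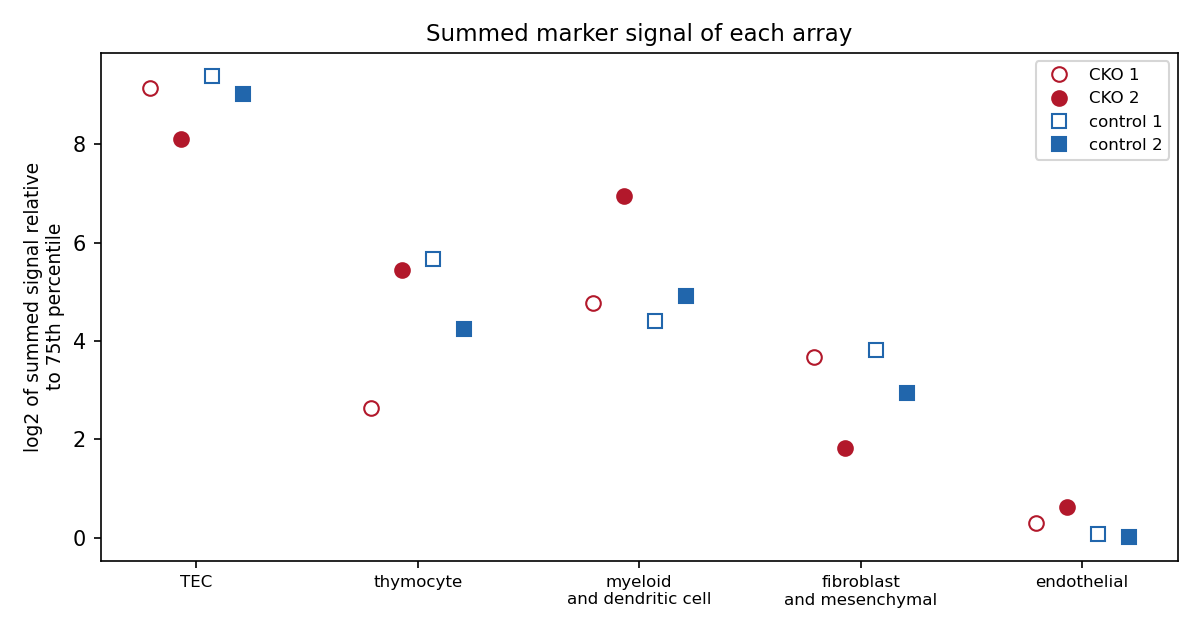
Log2 of the summed signal of 5 marker lists, relative to the 75th percentile of each array, for CKO 1 and 2 (red circles, open and filled) and control 1 and 2 (blue squares, open and filled). CKO 2 has the highest myeloid and dendritic sum (6.94) and the lowest TEC (8.10) and fibroblast (1.83) sums.

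For each member above background on all 4 arrays, the gene with the most similar centred levels was sought among 12673 others, by the root mean square distance over the 4 arrays. These were Sptbn4 for Il7 (0.012), Zc3h10 for Il15 (0.023), Cnnm3 for Il15ra (0.010), Gm9571 for Tslp (0.032), Nup98 for Flt3l (0.017), Scn3b for Igf1 (0.026) and Gng10 for Il6 (0.098). The Il6 pattern was shared by Gng10, which read 0.03 and 3.55 in CKO and 0.22 and 0.41 in control. The members' own spread over the arrays ran from 0.12 for Flt3l to 1.42 for Il6, so the distances give no order of likeness. With 4 arrays and so many genes, a close match describes these arrays and no more.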

How the data were processed

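Total RNA of 4 sorted TEC pools was amplified to cDNA from 10 ng and hybridised with Cy3, per the labels' protocols. The deposited intensity values had background and spatial trend removed array by array, with surrogates in place of low values and without scaling to other arrays, per the file headers. The software was Agilent Feature Extraction 9.5.3.1, per the submitters' processing notes. The 0 and 1 flags of each spot came from the same files. The deposited log2 value table, whose steps are not given in the sources used here, matched the scanner values (slope 1, correlation 1 over 20818 probes) and had each probe centred. Its column medians were -0.06 and -0.12 in CKO 1 and 2 and 0.04 and 0.09 in control 1 and 2.

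Levels were log2 signals minus each array's 75th percentile. Control spots (1639 of 45018) and 63 to 78 flagged spots per array were left out, and spots of a probe were averaged. A probe counted as above background where at least a share of 0.5 of its spots was flagged so. It was tested where above background on both arrays of a genotype, and the brightest probe stood for its gene, giving 16805 features. Symbols were updated by accession for 26690 of 41174 probes and by an older symbol for 952 through RefSeq (GRCm38.p6), and 6828 had none. The genotypes were compared with limma 3.58.1 (R 4.3.3), using every array and no block term, adjusted by Benjamini-Hochberg at 0.05, on 5.51 moderated degrees of freedom. Precision is limited by there being 4 arrays. The p-values rest on the spread of a gene between these pools, drawn by limma towards the typical spread of all features. A bound ("at least N-fold") sets the mean of the bright group against the dim group's mean of the higher of its own signal and the lowest level above background (-3.78 to -3.42). The test was checked on simulated data.

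Slide, scan and replicate number coincided, per the file headers. Arrays of 1 number deviated from the means of their genotypes with a correlation of 0.13 over 16797 features. The members and the lists were chosen with earlier results of these data known. Named from the pathway lists were up to 4 genes with the smallest p, and for each member the gene most alike. The alternatives were normexp correction with an offset of 50, quantile normalization, median centring, the value table, 2 other filters on dim probes, the slide as a block, the mean of a gene's probes and leaving out each array.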

Additional observations from a re-analysis of the deposited data

How the results depend on the processing

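Without 1 array at a time, the number of features with an adjusted p under 0.05 ranged from 0 to 209 higher and from 0 to 128 lower, and all of these calls arose without CKO 1, where CKO 2 stands alone. Features with an unadjusted p under 0.05 numbered 197 to 2833, against 467 with all arrays. The separated cytokine genes numbered 3 to 7 of 8 at any size and 1 to 4 with at least a 2-fold difference, against 2 and 1 with all arrays, since a lone array is more easily beyond the others. The log2 difference ranged from -2.59 to 1.87 for Kitl, -0.07 to 0.66 for Il15, -0.38 to 0.10 for Il15ra, -0.18 to 0.12 for Flt3l, -1.5 to 0.41 for Igf1 and -0.37 to 3.11 for Il6. Il7 and Tslp kept their sign without each array.

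With the replicate number (slide) as a block, 0 features passed in either direction and 649 had an unadjusted p under 0.05, and no member's call changed. The numbers share a slide, but the labels do not tie them to a litter or day. Normexp correction gave 179 features with an unadjusted p under 0.05, no cytokine gene separated by 2-fold (0 of 8), 0.10 for Kitl and -0.47 for Tslp, whose range without single arrays was -1.39 to -0.91. Without a filter on dim probes 1017 features had an unadjusted p under 0.05, and with detection on all 4 arrays 208, where Kitl had no value. The mean over a gene's probes left 1 separated cytokine gene and gave 0.03 for Il15ra. Quantile normalization, median centring and the value table changed no sign and no call of the 8 genes. The cause of these shifts was not tested. Kitl, Tslp and the dimmer probes lie near the background, which limits their values.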
